A study of Mus musculus with 8 samples.

Results

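The genes described here are 47 components of T-cell receptor signalling, given by name: the invariant chains of the receptor complex and the kinases, phosphatases, adaptors, ubiquitin ligases and transcription factor machinery that act behind it. Each was matched by gene symbol to probe sets of the Affymetrix mouse array that carry 1 symbol only, and the brightest probe set by mean log2(signal + 16) over all arrays stood for the gene. In this way 46 of the 47 were found among 18193 genes with such a probe set. The remaining listed gene, a kinase, is not analysed here. A gene was tested when its probe set reached the median of the whole table, a signal of 33.8, on at least 4 of the 8 arrays. That limit, called the dim limit below, left 45 of the 46 members among 9951 genes tested.

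The study asked what the transcription factor c-Myb, which immature blood cells express, does in double-positive thymocytes, which carry both CD4 and CD8, before positive selection. RNA of 8 mice aged 4 to 5 weeks was hybridised singly to 8 one-colour Affymetrix arrays, 4 titled Control with the genotype field c-Myb sufficient and 4 titled Mutant with the field c-Myb deficient. All mice of both groups were Tcra-/-, so that they cannot build a complete alpha-beta T-cell receptor, and all carried Cd4-Cre, which deletes floxed alleles in cells that have switched on Cd4. Thymocytes were harvested fresh and enriched for double-positive cells with magnetic beads against CD4. The source names run against the other fields, giving Control the genotype Mybf/f and Mutant the genotype Mybf/w. The groups are therefore called Control and Mutant after their titles, and every difference is Mutant minus Control. Which group lacks c-Myb is therefore not settled by the labels: if the source names were right, each rise and fall below, and the shares in each direction, would have the opposite sign as an effect of c-Myb loss.

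The T-cell receptor has no enzyme of its own. When it meets its ligand, kinases phosphorylate the cytoplasmic tails of the CD3 and zeta chains, Zap70 binds there and phosphorylates the adaptors Lat and Slp-76, and these gather the enzymes that open the calcium, Ras and NF-kappaB arms. Phosphatases, inhibitory adaptors and Cbl ubiquitin ligases restrain the same steps, and in double-positive thymocytes the strength of this signal decides between death, selection and neglect.

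Before the results, 3 facts about the libraries bear on all of them. Myb itself was not lower in Mutant: its brightest probe set, 1421317_x_at, read 8326.5 to 10387.9 on Control and 10511.9 to 11754.0 on Mutant arrays. Its probe set 1422734_a_at was higher in Mutant too, at 4183.2 to 5158.2 and 5458.0 to 6395.8. The groups overlapped at 1450194_a_at, with 6456.6 to 8464.2 on Control and 7020.7 to 7707.1 on Mutant arrays. Tcra was dim on all 8. Xist, which is transcribed from the inactive X of female cells, read 4358.5 on Control replicate 1 and 4128.7 to 5735.5 on Mutant arrays, but 23.4 to 36.7 on the other 3 Control arrays. Sex-linked expression thus ran with the groups on 7 of 8 arrays, and a fit with the Xist class (high or low) as a covariate is given below. The array's 18S ribosomal RNA control read 4514.4 on Mutant replicate 4 against 302.4 to 1108.8 on the others. The trimmed mean signal was equal on all arrays, but the scaling fixes this, so it cannot show whether a general shift was present before scaling. On the scaled signals the median difference over all tested genes was 0.02 on the log2 scale, and no further shift was subtracted from the values below. Calls under other scalings are given further below.

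Of the 45 members tested, 6 fell in Mutant (Cbl, Nfatc3, Nck1, Tespa1, Bcl10 and Cd247), 1 rose (Prkcq) and 38 did not pass the test. The test was limma's moderated test on log2(signal + 16) adjusted by Benjamini-Hochberg across the 9951 genes, with calls at an adjusted p under 0.05, and all adjusted p-values below are of this kind. The 7 called members are 15.6% of the 45, against 9.97% of all tested genes. In the downward direction the share was 13.3% against 4.08% of all genes, and in the upward direction 2.22% against 5.89%. The members were chosen with earlier results of these data known, so these shares describe the list and are no test of it. The members' median difference was 0.01 and their median size, sign disregarded, 0.19, against 0.02 and 0.16 for all tested genes. No member reached a difference of 1 on the log2 scale, a size that 231 of all tested genes (2.32%) reached. With 1 array left out in turn, 0 to 3 members were called higher and 2 to 7 lower. The fewest were called without Control replicate 3 (Cbl and Nfatc3), and the most without Mutant replicate 4, when Zap70, Cblb and Vav1 joined the 7. Without Mutant replicate 1, 2 or 3 no member was called higher and 3 or 4 were called lower. Without Control replicate 3 the called members were 4.44% of the 45, and 508 of all 9951 genes were called. Without Mutant replicate 1, 2 or 3 they were 6.67%, 8.89% and 6.67%, with 627, 541 and 595 of all genes called. The share of members called thus moved with single arrays, as did that of all genes. The lowest member was Nfatc3 at -0.76 and the highest Prkcq at 0.51.

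**Figure D1:**
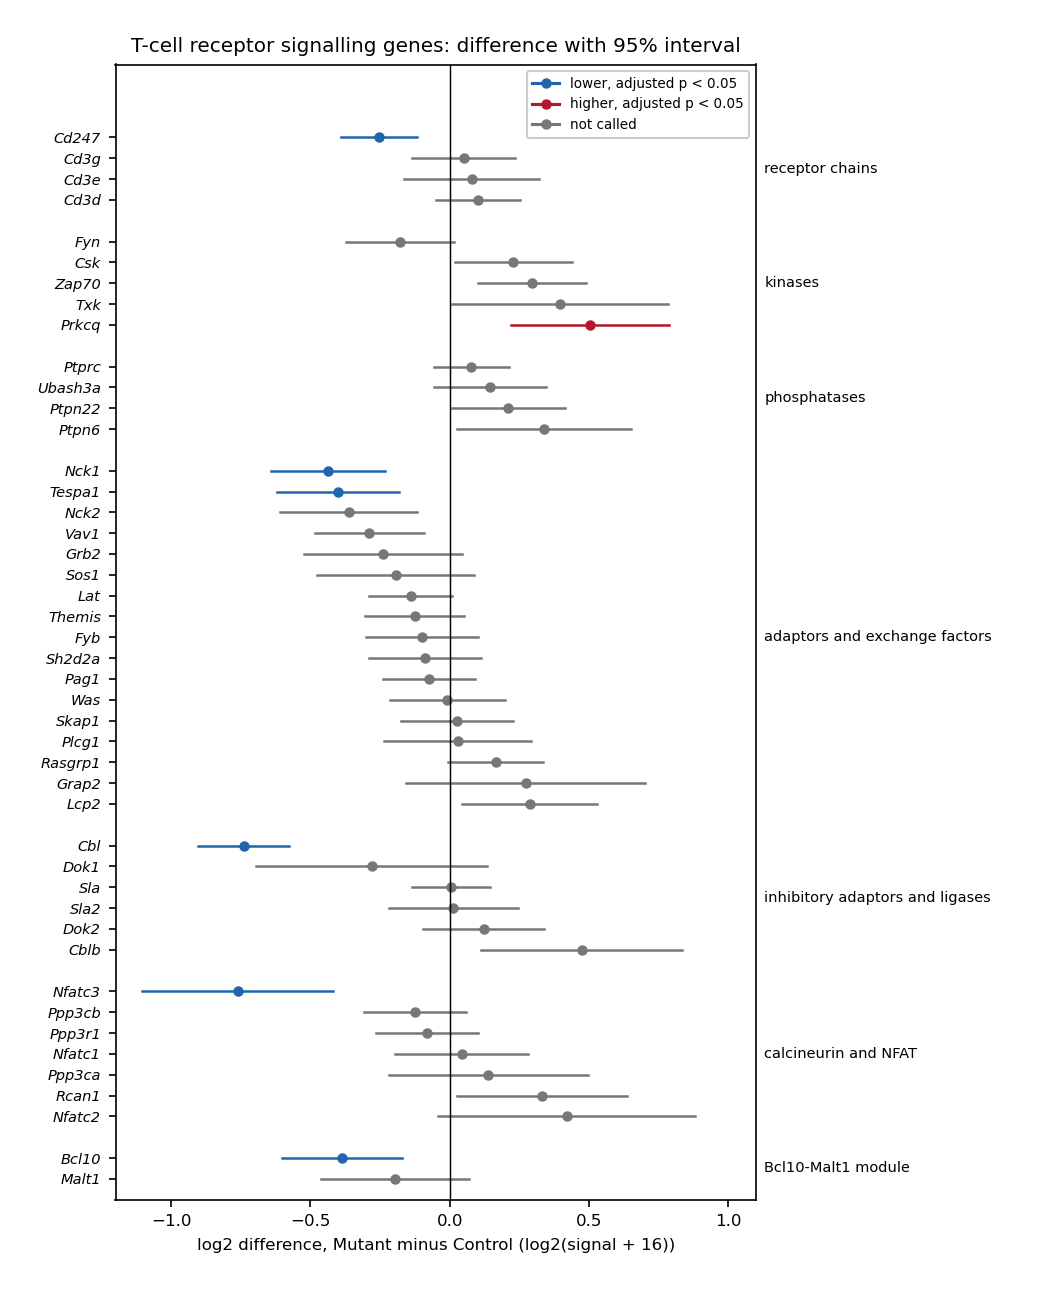
Log2 difference, Mutant minus Control, of the 45 tested members with its 95% interval from limma (x axis), grouped by role (y axis), with blue for members called lower, red for the member called higher and grey for the rest. The intervals of Nfatc3 and Cbl lie farthest to the left, and most grey intervals cross or approach 0.

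The promoters of 3 members are shown first, because Nfatc3 and Cbl had the largest differences and Prkcq was the member that rose, and because c-Myb is known to bind DNA at a short core. They are RefSeq windows of 300 bases on GRCm38.p6, from 250 before the start to 50 after it, read in the direction of the gene. The cores searched were CAACNG and TAACNG on both strands, of which no stretch can match both at the same place, and capitals mark a match. The windows are chr8:106058568-106058867 on the plus strand for Nfatc3, chr9:44233997-44234296 on the minus strand for Cbl and chr2:11172132-11172431 on the plus strand for Prkcq.
Nfatc3: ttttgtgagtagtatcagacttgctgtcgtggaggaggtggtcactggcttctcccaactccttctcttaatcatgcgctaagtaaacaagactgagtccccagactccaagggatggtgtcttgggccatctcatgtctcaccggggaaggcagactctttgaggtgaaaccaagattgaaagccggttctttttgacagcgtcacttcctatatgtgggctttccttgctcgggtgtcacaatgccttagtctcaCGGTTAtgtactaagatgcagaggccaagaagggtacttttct
Cbl: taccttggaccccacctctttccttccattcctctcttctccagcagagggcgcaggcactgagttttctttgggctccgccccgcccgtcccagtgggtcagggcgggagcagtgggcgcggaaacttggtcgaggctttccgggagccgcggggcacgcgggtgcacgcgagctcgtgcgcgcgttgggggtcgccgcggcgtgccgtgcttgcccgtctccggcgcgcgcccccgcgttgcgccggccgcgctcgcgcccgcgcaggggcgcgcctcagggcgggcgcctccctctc
Prkcq: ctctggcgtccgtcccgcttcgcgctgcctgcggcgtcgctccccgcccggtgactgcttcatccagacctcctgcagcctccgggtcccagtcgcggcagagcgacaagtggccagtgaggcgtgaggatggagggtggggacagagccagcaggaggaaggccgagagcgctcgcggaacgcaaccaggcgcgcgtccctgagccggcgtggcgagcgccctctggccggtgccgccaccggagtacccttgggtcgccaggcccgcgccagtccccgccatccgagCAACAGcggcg
The Nfatc3 window shown holds 1 TAACNG core, on the opposite strand, and a second RefSeq window of Nfatc3, chr8:106059340-106059639, holds neither core. The Prkcq window holds 1 CAACNG core in the bases after the start, while the letters of either core are not in the Cbl window. Among the members, 24 of 49 windows (49.0%) of 36 matched genes held at least 1 core, and among all 32851 RefSeq promoter windows 49.7% did. For the called members it was 5 of 8 windows (62.5%) of 6 matched genes. A match of this kind is a description of letters and not evidence of binding, and at this frequency it does not tell members from other genes.

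Among the receptor chains, the zeta chain Cd247 fell while the 3 CD3 chains did not pass the test. Cd247 encodes the chain with the most phosphorylation motifs of the complex. Its probe set 1426396_at read 4388.4, 4583.2, 4380.8 and 4323.4 on Control replicates 1 to 4 and 3669.3, 3901.9, 3766.1 and 3492.5 on Mutant replicates 1 to 4. All 4 Mutant arrays lay below all 4 Control arrays. The difference was -0.25 ± 0.06 (SE, n = 4 and 4; limma adjusted p = 0.0266), which is 83.9% of the Control level on the log2(signal + 16) scale. In bulk RNA of this kind, fewer cells of a type and less RNA per cell cannot be told apart.

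Other probe sets of Cd247 did not all show the drop. Probe set 1452539_a_at differed by -0.24 ± 0.14 and the much dimmer 1420716_at by 0.45 ± 0.25, and neither passed the test over probe sets. Taking the mean of the gene's probe sets gave -0.02 (adjusted p = 0.962), so the Cd247 call rests on its brightest probe set. The call was also lost without Control replicate 1, 2 or 3 or Mutant replicate 1 or 3 (difference -0.26 to -0.24, adjusted p = 0.0541 to 0.0771), and after quantile normalization or median centring.

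The CD3 chains pair beside the receptor and carry its signal across the membrane. Cd3e, Cd3d and Cd3g differed by 0.08 ± 0.11, 0.10 ± 0.07 and 0.05 ± 0.08, with limma adjusted p of 0.714, 0.403 and 0.768. Their 95% intervals ran from -0.16 to 0.32, from -0.05 to 0.25 and from -0.14 to 0.24. For Cd3g, Control replicate 1 read 6039.6 and the other Control arrays 4931.0 to 5030.5. The ranges of the groups overlapped for all 3 genes.

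Among the kinases, Prkcq rose and none fell. Prkcq encodes protein kinase C theta, which links the receptor to NF-kappaB and AP-1. It read 1792.7, 1760.6, 1269.0 and 1239.1 on Control replicates 1 to 4 and 2156.2, 2264.0, 2135.5 and 1954.8 on Mutant replicates 1 to 4. The Mutant arrays were all higher, and Control replicates 1 and 2 lay well above Control replicates 3 and 4. The difference was 0.51 ± 0.13 (SE, n = 4 and 4; limma adjusted p = 0.0315), a 1.42-fold rise. Only 1 probe set of Prkcq passed the dim limit, so no second one bears on it. The call was lost without Control replicate 3 or 4 or Mutant replicate 1, 2 or 3, with the difference between 0.42 and 0.50 and the adjusted p between 0.0686 and 0.101.

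The remaining kinases did not pass the test. Zap70, the kinase that docks on the phosphorylated chains, read 1339.1 to 1643.7 on Control and 1619.2 to 1909.3 on Mutant arrays, a difference of 0.30 ± 0.09 (limma adjusted p = 0.0588). Its groups overlapped only through Control replicate 4 and Mutant replicate 4, and without either of these arrays Zap70 was called higher. Its dimmer probe set 1440178_x_at was called higher in the fit over probe sets at 0.37 ± 0.10 (adjusted p = 0.0499), while 1439749_at, dimmer again, differed by -0.26 ± 0.12. Txk, a Tec-family kinase, differed by 0.40 ± 0.18 (adjusted p = 0.189). Csk, which phosphorylates the inhibitory tail of Src kinases, differed by 0.23 ± 0.10 (0.165). Fyn, a Src kinase, was the only kinase with a negative difference, at -0.18 ± 0.09 (0.247).

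None of the 4 phosphatases tested passed the test, and all 4 differences were positive as deposited, that of Ptprc turning to -0.04 under quantile normalization. The largest was that of Ptpn6, the SHP-1 phosphatase that reverses early phosphorylation. It read 1291.0, 1144.4, 1876.8 and 1667.5 on Control replicates 1 to 4 and 1750.2, 1826.8, 1809.4 and 2072.4 on Mutant replicates 1 to 4. Control replicate 3 lay above 3 of the 4 Mutant arrays. The difference was 0.34 ± 0.14 (limma adjusted p = 0.162). Ptpn22, which acts on Src kinases and Zap70, differed by 0.21 ± 0.09 (0.186). Ptprc, the CD45 phosphatase of all white blood cells, differed by 0.08 ± 0.06 (0.486), and its 95% interval ended at 0.21. Ubash3a differed by 0.14 ± 0.09 (0.373). Its relative Ubash3b was the member left untested, with 16.7 to 32.0 on the 8 arrays, below the dim limit.

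Of the 17 adaptors and exchange factors 2 were called lower (11.8%, against 4.08% of all tested genes) and none higher (against 5.89%), and 12 differences were negative and 5 positive (4634 and 5317 over all tested genes), though Was (0.00 after quantile normalization) and Skap1 (-0.002 after median centring) changed sign with the scaling. Nck1, an SH2-SH3 adaptor that ties Slp-76 and the CD3 epsilon chain to actin, fell. It read 695.8, 755.6, 783.0 and 709.4 on Control replicates 1 to 4 and 588.2, 553.5, 475.7 and 543.7 on Mutant replicates 1 to 4. All Mutant arrays were below all Control arrays, with Control replicate 3 and Mutant replicate 3 farthest apart. The difference was -0.44 ± 0.09 (SE, n = 4 and 4; limma adjusted p = 0.0142), or 73.9% of the Control level. A second, dim probe set, 1424543_at, read 44.5 to 76.5 and differed by -0.06 ± 0.20, and the mean of both was -0.25 (adjusted p = 0.205).

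Nck2, the close relative of Nck1, did not pass the test over genes, but its groups did not overlap. Its brightest probe set 1416796_at read 1103.4, 1531.6, 1142.7 and 1085.2 on Control replicates 1 to 4 and 923.6, 946.7, 904.6 and 953.5 on Mutant replicates 1 to 4. Control replicate 2 stood above the rest, and the Mutant arrays lay close together. The difference was -0.36 ± 0.11 (limma adjusted p = 0.0644). A second Nck2 probe set, 1416797_at, was called lower over probe sets, at -0.86 ± 0.19 (adjusted p = 0.0198). It read 303.1 to 392.0 on Control and 125.9 to 262.1 on Mutant arrays.

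Tespa1, a thymocyte protein that takes part in calcium signalling of the receptor during selection, fell. It read 1019.0, 1245.6, 1028.9 and 954.8 on Control replicates 1 to 4 and 815.5, 860.2, 750.5 and 764.5 on Mutant replicates 1 to 4. All Mutant arrays were below all Control arrays. The difference was -0.40 ± 0.10 (limma adjusted p = 0.0284), or 75.7% of the Control level. Its second probe set 1439179_a_at was also called lower, at -0.57 ± 0.11, and the last, 1439981_at, differed by -0.34 ± 0.20 without passing. The gene's call was lost without Control replicate 1 or 3 or Mutant replicate 1, 2 or 3 (difference -0.44 to -0.37, adjusted p = 0.0505 to 0.0814).

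Vav1, an exchange factor for Rac, read 855.4, 862.8, 983.0 and 896.4 on Control and 726.8, 701.4, 694.2 and 812.1 on Mutant replicates 1 to 4. Its groups did not overlap either, and the difference was -0.29 ± 0.09 (limma adjusted p = 0.0652). The central scaffolds pointed apart without passing the test. Lat, the membrane scaffold, differed by -0.14 ± 0.07 (0.236). Lcp2, which encodes Slp-76, differed by 0.29 ± 0.11 (0.129), and its dimmer probe set 1418642_at was called higher over probe sets at 0.48 ± 0.11 (adjusted p = 0.0305). Themis, a thymocyte adaptor of positive selection, differed by -0.13 ± 0.08 (0.382) at its brightest probe set. Its dimmer 1439719_at was called lower at -0.44 ± 0.10 (adjusted p = 0.0246), while 1443192_at differed by 0.28 ± 0.23.

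The remaining adaptors and exchange factors lay between -0.24 (Grb2) and 0.27 (Grap2), and none was called. Sos1, the exchange factor for Ras that Grb2 carries, differed by -0.19 ± 0.13 (limma adjusted p = 0.394). Rasgrp1, the Ras exchange factor that diacylglycerol recruits, differed by 0.17 ± 0.08 (0.217). Plcg1, the phospholipase that makes diacylglycerol, differed by 0.03 ± 0.12 (0.917). For Was, the actin regulator mutated in Wiskott-Aldrich syndrome, and Skap1, an adaptor of integrin activation, the differences were -0.01 ± 0.09 and 0.03 ± 0.09.

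Among the inhibitory adaptors and ligases, Cbl fell, and with the smallest adjusted p of all members. Cbl encodes a ubiquitin ligase that marks receptor chains and active kinases for degradation. It read 4087.4, 4356.6, 4408.2 and 3730.7 on Control replicates 1 to 4 and 2377.4, 2498.4, 2393.5 and 2617.7 on Mutant replicates 1 to 4. The groups were far apart, with Control replicate 4 the lowest of its group and Mutant replicate 4 the highest of its own. The difference was -0.74 ± 0.07 (SE, n = 4 and 4; limma adjusted p = 0.000269), or 59.9% of the Control level. The 2 other Cbl probe sets, 1450457_at and 1455886_at, were called lower as well, at -1.04 ± 0.21 and -0.77 ± 0.18. Cbl kept its call without each array in turn.

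The homologous ligase Cblb did not pass the test, and its difference had the opposite sign. It read 254.0, 211.8, 237.4 and 208.9 on Control replicates 1 to 4 and 309.3, 346.9, 432.0 and 231.2 on Mutant replicates 1 to 4. Mutant replicate 4 lay within the Control range and the other 3 above it. The difference was 0.48 ± 0.16 (limma adjusted p = 0.0959), and without Mutant replicate 4 Cblb was called higher. The other Cblb probe sets past the dim limit differed by 0.28 ± 0.17 and 0.50 ± 0.25. The Src-like adaptors Sla and Sla2, which promote removal of the receptor from the surface, differed by 0.00 ± 0.06 and 0.01 ± 0.10. Dok1 and Dok2, adaptors that recruit a Ras inactivator, differed by -0.28 ± 0.19 and 0.12 ± 0.10, and neither was called.

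In the calcium-responsive arm, Nfatc3 fell and the other NFAT and calcineurin genes did not pass the test. Nfatc3 is the NFAT factor long known to be abundant in double-positive thymocytes, and it enters the nucleus once calcineurin removes its phosphates. It read 3234.1, 3396.6, 3870.8 and 4047.7 on Control replicates 1 to 4 and 2271.8, 1886.1, 1639.5 and 2933.2 on Mutant replicates 1 to 4. Mutant replicate 4 came nearest to the Control arrays without reaching them. The difference was -0.76 ± 0.16 (limma adjusted p = 0.0118), or 59.0% of the Control level. The second probe set, 1452497_a_at, had less spread and was called lower at -0.81 ± 0.10 (adjusted p = 0.00093). Nfatc3 kept its call without each array in turn.

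Nfatc2 read 189.5, 195.0, 177.9 and 142.6 on Control replicates 1 to 4 and 195.2, 199.9, 402.4 and 207.8 on Mutant replicates 1 to 4. Its groups did not overlap, but Mutant replicate 1 and Control replicate 2 were nearly equal and Mutant replicate 3 alone was clearly apart. The difference was 0.42 ± 0.21 (limma adjusted p = 0.247), and 0.18 without Mutant replicate 3. Its other probe set past the dim limit, 1425901_at, differed by -0.22 ± 0.25. Nfatc1 differed by 0.04 ± 0.11 (0.849). The calcineurin subunits Ppp3ca, Ppp3cb and Ppp3r1 differed by 0.14 ± 0.16, -0.12 ± 0.08 and -0.08 ± 0.08. Rcan1, a calcineurin inhibitor that NFAT itself induces, differed by 0.33 ± 0.14 (0.162).

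Of the Bcl10 and Malt1 pair, which relays protein kinase C theta to NF-kappaB, Bcl10 fell. It read 735.6, 810.4, 854.1 and 756.6 on Control replicates 1 to 4 and 622.3, 556.0, 546.4 and 679.9 on Mutant replicates 1 to 4. All Mutant arrays were below all Control arrays. The difference was -0.39 ± 0.10 (limma adjusted p = 0.0316), or 76.5% of the Control level. All 3 other Bcl10 probe sets were negative, at -0.35, -0.44 and -0.17, and of these 1418972_at was called. The gene's call was lost without Control replicate 2 or 3 or Mutant replicate 1, 2 or 3 (difference -0.41 to -0.34, adjusted p = 0.0579 to 0.108). Malt1, the protease of the pair, differed by -0.20 ± 0.12 (0.36).

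**Figure D2:**
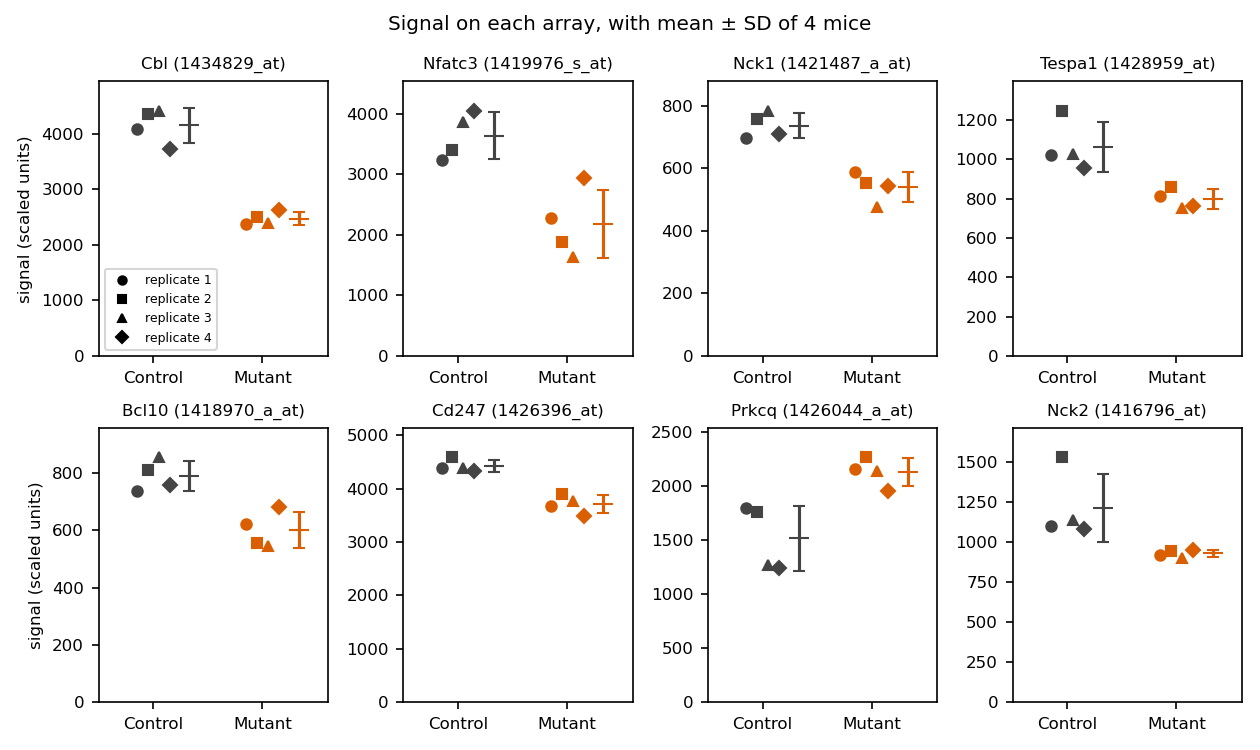
Deposited signal (y axis, scaled units, from 0) on each array of the 7 called members and Nck2, with the replicates by marker shape and the mean ± SD of 4 mice per group beside the points. The groups do not overlap in any panel, with the widest gap for Cbl and the Control arrays of Prkcq in 2 pairs.

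Counted by separation of the arrays alone, 8 members (17.8%) had every Mutant array below every Control array, against 7.1% of all tested genes. They were the 6 called lower together with Nck2 and Vav1. For 2 members (4.44%), Prkcq and Nfatc2, every Mutant array was above, against 9.87% of all tested genes. With 4 arrays against 4 there are 70 labellings, and the smallest 2-sided exact permutation p of any single gene is 0.0286. Every gene whose groups do not overlap has this p, so it adds nothing to the count of these 10 members.

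The 46 members had 116 probe sets, of which 103 passed the dim limit. In a limma fit over all 19115 such 1-symbol probe sets, 16 of the 103 (15.5%) were called, 13 lower and 3 higher, against 6.97% of all. They belonged to 11 members, the 7 called over genes and Zap70, Lcp2, Themis and Nck2. For the called members, 10 of 11 other probe sets had the sign of the brightest one, the exception being 1420716_at of Cd247. For the members not called it was 29 of 47. Probe sets of 1 gene share the RNA of the same arrays, so they bear on the probes and not on the mice.

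**Figure D3:**
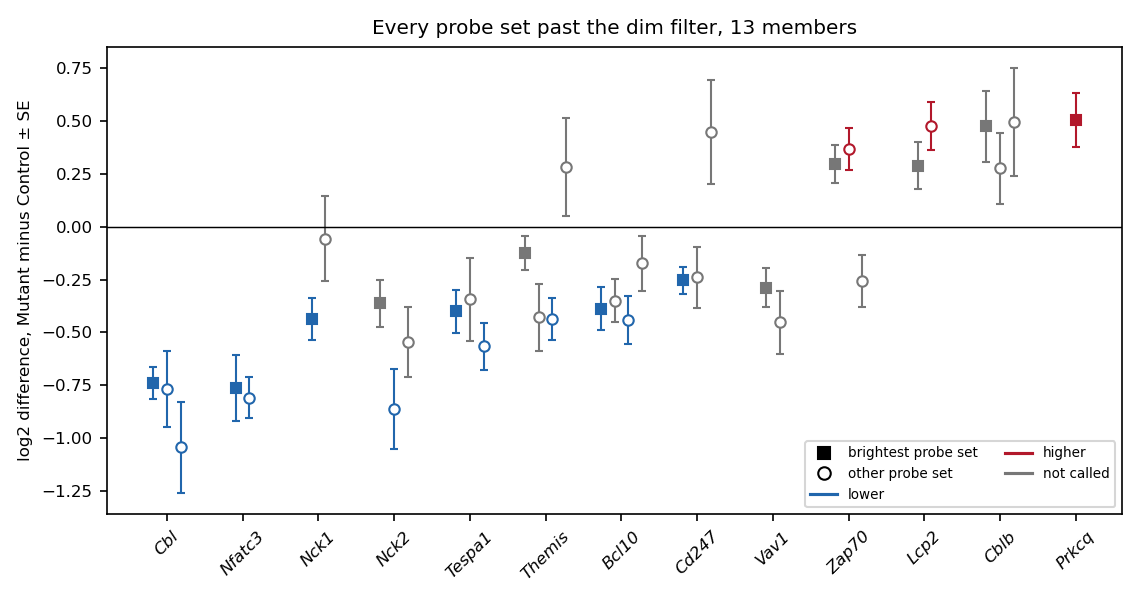
Log2 difference, Mutant minus Control, ± SE (y axis) of every probe set past the dim limit for the called members and others named in the text (x axis), with squares for the brightest probe set, circles for the others and colour for calls in the fit over probe sets. Cbl and Nfatc3 are lower at every probe set, whereas Cd247, Themis and Zap70 have probe sets on both sides of 0.

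With the Xist class as a covariate, each difference is the Mutant mean minus Control replicate 1, the only Control array of the high class. The other Control arrays enter its SE only, so the estimate rests on 1 Control mouse. In that fit no member passed the threshold, and of all tested genes 26 (0.261%) did. Cbl differed by -0.72 ± 0.12 (limma adjusted p = 0.0546), close to its value without the covariate. Nfatc3 differed by -0.60 ± 0.25 (0.445), Nck1 by -0.36 ± 0.15 (0.448), Tespa1 by -0.35 ± 0.17 (0.513) and Cd247 by -0.24 ± 0.10 (0.445). Bcl10 differed by -0.29 ± 0.16 (0.602). Prkcq differed by 0.24 ± 0.19 (0.734), less than with no covariate, and Control replicate 1 was the highest of its Control arrays. Of the 45 members, 34 kept their sign, while the median SE over all genes went from 0.13 to 0.21. The part of sex-linked expression in the calls cannot be told apart from the groups.

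**Figure D4:**
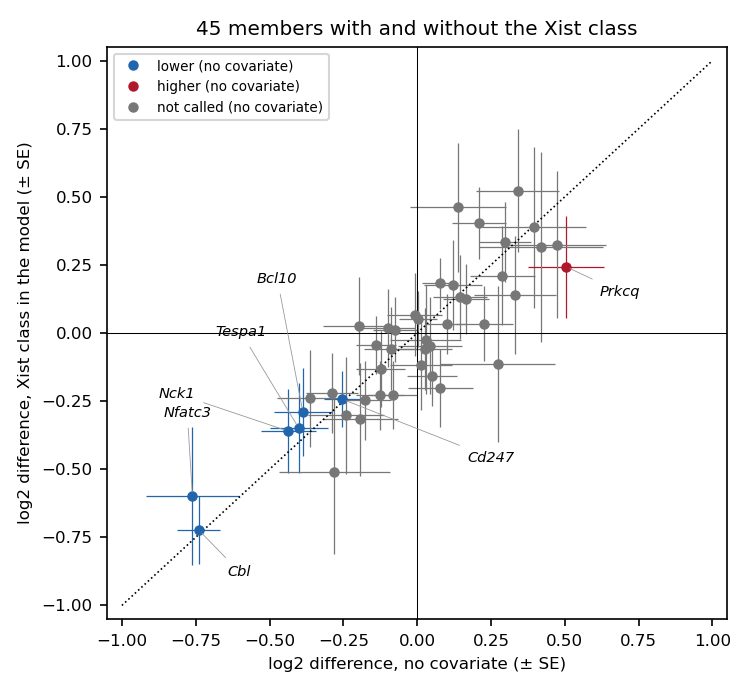
Log2 difference of each of the 45 members with no covariate (x axis) and with the Xist class in the model (y axis), both ± SE, and the dotted line of equality. Cbl lies near the line, Prkcq lies below it, and the vertical bars are longer than the horizontal ones.

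Some markers of thymocyte stages moved with the groups too. The summed signal of 11 double-positive markers was 70454.2 to 74752.0 on Control and 62280.6 to 67376.5 on Mutant arrays, and 4 of the 11 fell (Rag2, Dntt, Arpp21 and Cd24a). The other 7 were not called, among them Cd4 (-0.08), Cd8a (0.04), Cd8b1 (0.04) and Rag1 (-0.07). The 11 include the members Cd3e and Themis. Of 5 mature single-positive markers tested 3 rose (Ccr7, Klf2 and Gimap4), and the sum of 6 was 444.1 to 881.0 on Control and 1408.1 to 2377.0 on Mutant arrays. Of 5 double-negative markers 1 rose, Il2ra, and their sums were 287.1 to 535.7 and 855.7 to 1582.0. Most of the gap came from Il2ra itself (30.6 to 192.6 and 570.1 to 1101.9). Kit, Cd44, Il7r and Hes1 differed by 0.40, -0.22, 0.52 and 0.59, had overlapping groups and were not called. Of 2 natural killer and gamma-delta markers tested Gzma rose, by 0.75. The other, Klrd1, was not called (0.78, limma adjusted p = 0.155), though every Mutant array lay above every Control array. The sums over 7 markers, 2042.4 to 2550.4 and 3154.3 to 4278.7, are nearly all Gzma itself (1979.5 to 2400.3 and 2961.8 to 4065.8). Ncr1, Eomes and Tbx21 stayed near or below the dim limit. The B-cell sums were 7174.1 to 7393.2 and 7687.3 to 8621.9, nearly all of it from the Ighm probe set (6579.2 to 6880.5 and 7105.8 to 8077.6), with Cd79a at 4.3 to 25.6 throughout, and none of the 2 tested was called. Of 12 macrophage and dendritic markers tested 1 fell, Syk, with overlapping sums of 1202.3 to 2451.2 and 1450.4 to 2021.3. Only 1 of 4 erythroid, 1 of 7 granulocyte and 3 of 7 stromal markers passed the dim limit and were tested, and none was called. The stromal sums were 793.5 to 858.1 on Control and 563.1 to 811.5 on Mutant arrays, with Pecam1 and Epcam below every Control array on all 4 Mutant arrays (-0.36 and -0.57, limma adjusted p = 0.139 and 0.0796). Col3a1, untested and below the dim limit throughout, went the other way, at 3.5 to 10.7 on Control and 20.7 to 31.4 on Mutant arrays. The granulocyte sums were 70.1 to 128.3 and 120.9 to 278.9, and the erythroid sums 120.1 to 200.5 and 104.1 to 156.7. The part of these markers in the members' differences was not tested.

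Around the members, 178 further genes of the pathway had been listed by arm, of which 130 were tested. Of these, 16 rose (12.3%, against 5.89% of all tested genes) and 12 fell (9.23%, against 4.08%), and several differed more than any member did. The lists were chosen with earlier results of these data known, so these shares describe the lists and do not test the pathway. Of 12 coreceptors and costimulatory receptors 3 rose and 1 fell. The inhibitory receptor Btla rose by 2.07 (adjusted p = 0.00284), the adhesion receptor Cd2 by 0.89 (0.00325) and Cd27 by 0.35 (0.0207), and Cd6, a scavenger-type receptor of T cells, fell by 0.98 (0.00221). The pre-receptor list had 1 tested gene, Ptcra, at -0.08 and not called.

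Of 14 Tec kinase and lipid genes 4 fell and 1 rose. Pik3cd, the delta catalytic subunit of phosphoinositide 3-kinase, rose by 0.76 (adjusted p = 0.00953), while the kinase Tec fell by 0.51 (0.0219) and the gamma subunit Pik3cg by 0.44 (0.0341). The beta subunit Pik3cb was called lower at -0.82 (0.0159), but all 4 Mutant arrays were below the dim limit, at 18.8 to 33.6. Dgkz, which removes diacylglycerol, also fell, by 0.30 (0.0064). Of 24 genes of the Ras and MAP kinase arm 4 rose and 1 fell. The Ras inactivator Rasa3 rose by 1.35 (0.00602), the Ras pathway inhibitor Spry1 by 0.76 (0.0229), the kinase Map2k1 by 0.40 (0.0342) and the MAP kinase phosphatase Dusp10 by 0.39 (0.0444). The inactivator Rasa2 fell by 0.31 (0.0453).

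Of 19 calcium genes 2 rose and 1 fell. The kinase Camk4 fell by 0.93 (adjusted p = 0.00188), and the calcineurin regulator Rcan3 and the calcium sensor Stim1 rose by 0.59 (0.0202) and 0.47 (0.0182). Both called genes among 10 of the NF-kappaB arm, are inhibitors, of which Tnfaip3 fell by 1.45 (0.00131) and Nfkbia fell by 0.37 (0.00554). Of 19 actin genes Evl and Dock2 rose by 1.97 (0.000421) and 0.59 (0.0417), and Wasf2 fell by 0.40 (0.0195). Of 17 other phosphatases and inhibitory adaptors Socs3 and Ptpra rose, by 1.89 (0.00567) and 0.37 (0.0333). Of 17 genes that respond to the receptor, Il2ra and Itm2a rose by 3.20 (0.00117) and 0.69 (0.00235), and Tox and Egr1 fell by 0.82 (0.0296) and 0.60 (0.0215). The differences of genes with Control arrays below the dim limit, Btla and Il2ra, are understated on this scale.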

How the data were processed

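The 8 arrays were Affymetrix mouse whole-genome chips of biotin-labelled cRNA, 1 per mouse. For every probe set the deposited table holds an intensity, or signal, on a linear scale for each array. Per the submitters' processing notes it was made with the Affymetrix program GCOS, with the version not given in any source at hand. Arrays share 1 trimmed mean, and such scaling hides differences in total RNA between cells.

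From there, intensities were used as log2(signal + 16). Of 45101 probe sets, 64 controls were left out, 34945 had 1 gene symbol in the platform annotation, 932 several and 9160 none. Differences were fitted with limma 3.58.1 in R 4.3.3 (lmFit, eBayes with a variance trend, 2-sided), after a check on simulated data. A fold on this scale understates changes of dim genes, and the small number of arrays limits the precision. Signals of different genes are not compared, since probes differ in brightness. Detection calls and batches were not used here. The labels call the arrays biological replicates. Python 3.11.15 with pandas 2.3.3 and matplotlib 3.10.9 served for counts and figures.

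The members and gene lists were chosen with earlier results of these data known. Called members, and the member with the largest difference in each role, are given array by array, as are a few others chosen after their values were seen. For each further list up to 4 called genes with the largest difference are named, and Dgkz and Rasa2 were added after their values were seen. The Xist class was high above a cut between both sets of arrays. Alternatives covered the scaling, the threshold, the pseudocount, the dim limit, how probe sets stand for a gene, the variance trend, weights of arrays, the Xist class, a replicate block and each array left out.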

Additional observations from a re-analysis of the deposited data

Results flagged for a closer look

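For 3 of the 90 groups of 4 arrays (45 tested members in each genotype), 1 array lay far from the other 3 by Dixon's gap test at its 95% critical value for 4 samples. Chance alone flags about 1 group in 20. Cd3g read 6039.6 on Control replicate 1, the highest, against 4931.0 to 5030.5 on the other Control arrays. Nfatc2 read 402.4 on Mutant replicate 3, the highest, against 195.2 to 207.8 on the other Mutant arrays. Nck2 read 1531.6 on Control replicate 2, the highest, against 1085.2 to 1142.7 on the other Control arrays.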

How the results depend on the processing

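With 4 mice a group, and sex-linked expression running with the groups on 7 of 8 arrays, no member call held under every setting. Cbl kept its call in all alternatives but the Xist class, and Nfatc3 in all but that and the 0.01 threshold, while Cd247, Tespa1, Prkcq and Bcl10 each lost theirs without any of 5 single arrays and Nck1 without Control replicate 3 (limma adjusted p = 0.0577). The cause was not tested. All 45 tested members were at or above the dim limit of 33.8 on all 8 arrays, so dimness of the brightest probe set limits Ubash3b only.

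Against 1 member higher and 6 lower in the report, leaving out 1 array at a time gave 0 to 3 higher and 2 to 7 lower, with 508 to 1218 of all genes and 14 to 33 of the other pathway genes called (992 and 28 in the report). The fewest member calls came without Control replicate 3 (0 higher and 2 lower, with 508 of all genes). The counts without Mutant replicate 1, 2 or 3 were 0 higher and 3, 4 and 3 lower, with 627, 541 and 595 of all genes. Array weights gave 5 members higher, 8 lower, 1742 genes and 45 pathway genes. A threshold of 0.01 gave 0 members higher, 1 lower, 371 genes and 13 pathway genes. One of 0.10 gave 3 higher, 8 lower, 1576 genes and 39 pathway genes. The Xist class gave 0 higher, 0 lower, 26 genes and 2 pathway genes. The mean of a gene's probe sets gave 2 members higher and 6 lower, and the fit with no variance trend 0 higher and 5 lower. Median centring gave 1 member higher, 4 lower and 721 genes, with Bcl10 and Cd247 no longer called. Replicate numbers were not taken as pairs, since the labels name no pairing. Same-numbered deviations correlated at 0.003, 0.172, -0.274 and 0.36, and differently numbered ones from -0.389 to 0.371. So few values cannot decide whether the arrays were paired. A replicate block gave 3 members higher, 5 lower, 1036 genes and 32 pathway genes, with Bcl10 at an adjusted p of 0.0554.

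Of 990 single-member values under 22 alternatives 889 kept direction and call, 43 lost the call, 20 gained it and 38 changed sign. The last were all in 15 members not called. With the Xist class they were Cd3e -0.203, Cd3g -0.158, Plcg1 -0.024, Pag1 0.013, Grap2 -0.114, Nfatc1 -0.046, Sla2 -0.116, Was 0.067, Skap1 -0.059, Fyb 0.018 and Malt1 0.026. With the mean of probe sets they were Plcg1 -0.258, Rasgrp1 -0.038, Nfatc1 -0.053, Ppp3r1 0.028, Sla -0.076, Sla2 -0.018 and Malt1 0.038. Quantile normalization gave Ptprc -0.035, Sla -0.009 and Was 0.00, median centring Sla -0.025, Sla2 -0.016 and Skap1 -0.002, and array weights Plcg1 -0.01 and Sla2 -0.013. Leaving out single arrays gave Plcg1 from -0.066 to 0.1, Nfatc1 from -0.03 to 0.124, Sla from -0.037 to 0.033, Sla2 from -0.084 to 0.055, Was from -0.071 to 0.044 and Skap1 from -0.046 to 0.084.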
